A study of Mus musculus with 11 samples.

Results

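Hippocampal astrocytes of wildtype female mice that had lost their ovaries early in life were compared with those of wildtype females that kept them. The comparison holds 7 of the 11 libraries of the series, 3 WT (sham) mice named F1, F3 and F4 and 4 WT (GDX) mice named F1 to F4, chosen by the genotype and gonad labels. All 7 mice were 12 to 14 months old and of C57BL/6J background, and those in WT (GDX) were gonadectomized at 2 months of age. The remaining 4 libraries came from sham operated females lacking estrogen receptor beta in astrocytes, ERβ cKO (sham), and are used here only to set values side by side.

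Every mouse in both WT groups carried a Cre transgene driven by the mouse Gfap promoter and the RiboTag allele, in which Cre adds an HA tag to the ribosomal protein RPL22. Ribosomes with the mRNA on them were precipitated through the tag from hippocampus, so a value is ribosome-bound mRNA of cells in which that promoter has been active, plus whatever other RNA the precipitate carried. Counts were made per gene, 1 library per mouse, and a level is given as CPM, counts scaled to a common library total with TMM factors. In bulk RNA of this kind, fewer cells of a type and less RNA per cell cannot be told apart. The estrous stage of the sham mice is not given in the sources used here.

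Ovaries make estradiol and progesterone, which act through nuclear receptors on genes in many cells of the brain. Their loss changes other hormonal axes and fuel use in the body as well, and glucocorticoids from the adrenal gland act on astrocytes through a receptor of the same family. Astrocytes take up glutamate and turn it into glutamine, store glycogen, burn fatty acids, and join each other through connexin channels.

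Of 19695 genes tested, 86 changed at an adjusted p under 0.1 by edgeR's quasi-likelihood test, which is 0.437%, with 64 higher in WT (GDX), or 0.325%, and 22 lower, or 0.112%. The groups did not overlap for any of the 86, where 4.99% of all genes tested were apart and higher and 3.38% apart and lower. The 86 were picked by small p from these same mice, so separate groups are no further support for them. The rises were modest, with log2 fold changes from 0.34 to 2.63 and a median of 0.50, and only 4 of the 64 were above 1, whereas 15 of the 22 falls were below -1. Totals ranged from 16956233 to 18190968 counts per library, and WT (sham) F3 and F4 lay apart from the other 5 libraries in their overall profile. WT (sham) F3 was the lowest sham mouse for 35 of the 64 rises and WT (GDX) F3 the highest GDX mouse for 39. Without WT (sham) F3, 11 genes passed, without WT (GDX) F3, 20 did, without WT (GDX) F1, 40, without WT (GDX) F2, 53, without WT (GDX) F4, 140, and without WT (sham) F4, 275. Rin2, Mt2, Thrsp, Pdk4, Nde1, Plekhg1 and Txnip were the rises that passed whichever mouse was left out, and all other rises lost their call without WT (sham) F3.

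Rin2, which encodes an activator of the endosomal GTPase Rab5, had the smallest p of the rises. It lies on chromosome 2 at 145675215 to 145887616 in mm10. Its level was 92.5, 74.6 and 78.0 CPM in the sham mice and 136, 129, 154 and 128 CPM in the GDX mice. The lowest GDX mouse was thus well above the highest sham mouse. The log2 fold change was 0.74 ± 0.10 (SE, n = 3 and 4; edgeR adjusted p = 0.000788). In ERβ cKO (sham) its level was 79.2 to 111 CPM on a scale set over all 11 libraries. Nde1, a partner of the dynein motor, was at 60.5, 61.0 and 68.0 CPM in sham mice and 86.5 to 105 CPM in GDX mice, a log2 fold change of 0.59 ± 0.10 (SE; edgeR adjusted p = 0.00652). Plekhg1, a guanine nucleotide exchange factor gene, was at 22.4, 26.3 and 33.0 CPM against 39.5 to 50.6 CPM, a log2 fold change of 0.77 ± 0.13 (SE; edgeR adjusted p = 0.00854). Smim3, a small membrane protein gene, had the largest difference among the 18 rises with the smallest p, from 33.1, 22.5 and 25.6 CPM to 74.2, 64.8, 73.1 and 45.6 CPM (log2 fold change 1.25 ± 0.18, SE; edgeR adjusted p = 0.0246). It lost its call without WT (sham) F3 and without WT (sham) F4.

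**Figure D1:**
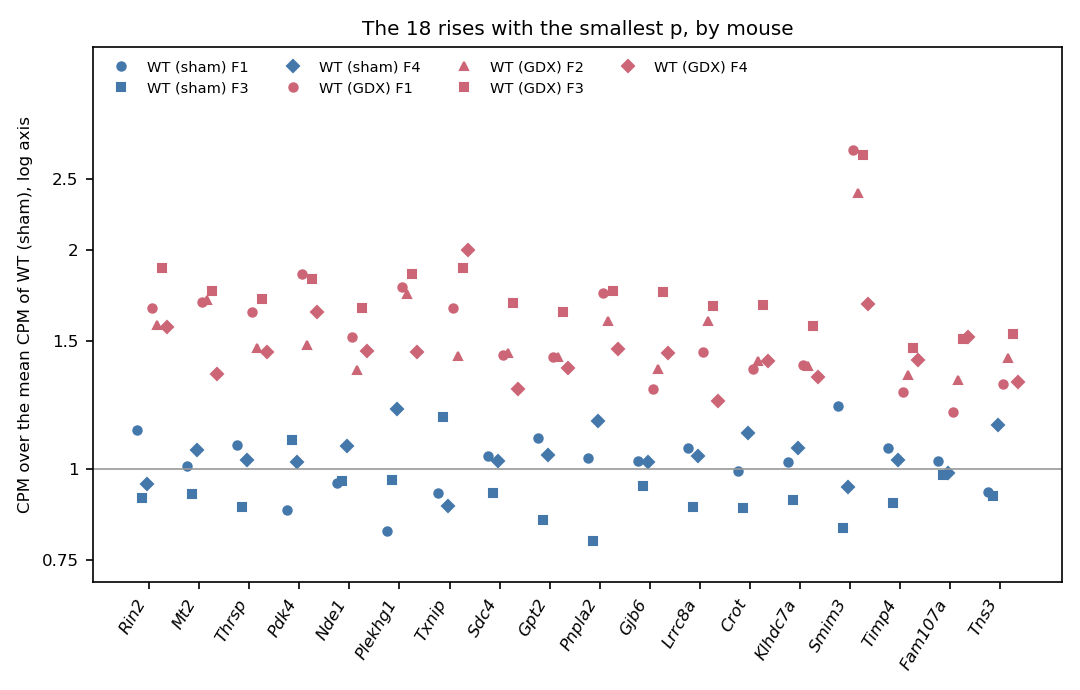
The 18 rises with the smallest p, each mouse's CPM divided by the mean CPM of the 3 WT (sham) mice on a log axis; blue marks are sham mice and red marks GDX mice, with a mark shape for each mouse number. The GDX mice lie above the sham mice for every gene shown, and Smim3 is the highest at 74.2 CPM in F1 against a sham mean of 27.1 CPM.

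Genes of fuel choice were among the rises. Pdk4 encodes a kinase that switches off pyruvate dehydrogenase and so keeps pyruvate out of the TCA cycle. It was at 23.5, 29.4 and 27.4 CPM in sham mice and at 49.6, 39.6, 48.9 and 44.1 CPM in GDX mice, a log2 fold change of 0.77 ± 0.12 (SE; edgeR adjusted p = 0.00331). Every GDX mouse was well above every sham mouse. Of the 13 genes of pyruvate dehydrogenase and its kinases, Pdk4 alone passed the test, and Pdk2, another such kinase, had groups that did not overlap, at 175 ± 14.7 CPM against 218 ± 11.8 CPM (SD), with an edgeR adjusted p of 0.166. Txnip, an inhibitor of thioredoxin that also restrains glucose uptake, was at 18.3, 23.3 and 17.5 CPM in sham mice and at 32.8, 28.2, 37.3 and 39.4 CPM in GDX mice (log2 fold change 0.81 ± 0.14, SE; edgeR adjusted p = 0.00889).

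Single genes that act on fatty acids and stored fat were also among those that rose. Pnpla2, the lipase that opens the breakdown of stored triglyceride, was at 27.2, 21 and 30.6 CPM in sham mice and at 45.8, 42.0, 46.1 and 38.4 CPM in GDX mice, with a log2 fold change of 0.71 ± 0.13 (SE; edgeR adjusted p = 0.0112). Crot, a peroxisomal carnitine acyltransferase, was at 64.6, 57.5 and 72.9 CPM against 89.2, 91.6, 109 and 91.5 CPM (log2 fold change 0.55 ± 0.10, SE; edgeR adjusted p = 0.0167). Thrsp, a thyroid hormone-responsive protein of fat synthesis, was at 123, 101 and 118 CPM against 188, 168, 195 and 165 CPM (log2 fold change 0.65 ± 0.09, SE; edgeR adjusted p = 0.00165). In each of these genes the sham and GDX mice formed separate ranges. Of the 27 genes of fatty acid synthesis, storage and transport, Pnpla2 was the only one called, with 18 of 27 positive and a median of 0.10. None of 24 genes of fatty acid oxidation and ketone bodies was called, but 21 were positive with a median of 0.13, and the groups did not overlap for 8 of them, all higher, against 4.99% of all genes tested. Acadl, an acyl-CoA dehydrogenase of the mitochondrion, had the smallest p there, at 80.7 ± 5.51 CPM against 103 ± 7.06 CPM (SD; edgeR adjusted p = 0.124). Acot11, a fatty acyl-CoA thioesterase, and Phyh, which starts the breakdown of branched fatty acids in the peroxisome, also rose, by 0.42 and 0.37 on the log2 scale, and are named after their values were seen.

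Gpt2, the mitochondrial alanine aminotransferase, is on no list and was at 157, 121 and 149 CPM in sham mice and at 203, 202, 234 and 196 CPM in GDX mice, a log2 fold change of 0.56 ± 0.10 (SE; edgeR adjusted p = 0.0112). Ppp1r3g, which brings protein phosphatase 1 to glycogen, was at 33.4, 25.3 and 30.2 CPM against 52.5, 49.6, 50.7 and 34.7 CPM (log2 fold change 0.66 ± 0.14, SE; edgeR adjusted p = 0.0469). Its value in WT (GDX) F4 was close to the highest sham mouse. It was the only one of 21 genes of glucose transport, lactate transport and glycogen that passed, while 13 were positive with a median of 0.12. A further 3 rises, on no list, are named after their values were seen. Ak3, a mitochondrial adenylate kinase, Phkg1, the catalytic subunit of phosphorylase kinase, and Nadk, which makes NADP, had log2 fold changes of 0.43, 0.42 and 0.37.

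No gene on the lists of glycolysis, the TCA cycle and the respiratory chain was called. Over all genes tested 0.437% were called, so lists this short without a call are no result about these pathways. None of 20 glycolysis genes was called, with 10 positive and 10 negative and a median of 0.01 that turned negative under both other scalings tried, DESeq2's size factors and the bare library totals. Eno1, enolase of glycolysis, was at 50.2 ± 6.05 CPM in sham mice and 53.0 ± 3.8 CPM in GDX mice (SD), with overlapping groups (edgeR adjusted p = 0.917). Levels differed widely within the glycolysis list. In sham mice Gapdh, Pgam1 and Pgk1 averaged 3.15, 13.8 and 17.9 CPM and Aldoa 1402 CPM, all 4 named after their values were seen. How reads with several matches were counted is not given, so the low members are uncertain, and Eno1 at 50.2 CPM with them. All 17 TCA cycle genes and 25 of 28 nuclear genes of the respiratory chain were positive, with medians of 0.08 in both lists and no call. None of 23 cholesterol synthesis genes passed, with 19 positive and a median of 0.10; Msmo1, a sterol oxidase of that pathway, was at 170 ± 16.4 CPM against 217 ± 18.5 CPM (SD; edgeR adjusted p = 0.123). Over all genes tested the median log2 fold change was -0.01.

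Genes known to respond to glucocorticoids had more members called than any other list. By share the metallothionein and zinc transport list was higher, with 3 of 8 called, and Mt1 and Mt2 are on both lists. Of 43 glucocorticoid-responsive genes tested, 11 rose, or 25.6%, against 0.325% of all genes tested, and none fell. In all 34 were positive, and the median log2 fold change was 0.39, between 0.35 and 0.43 whichever mouse was left out. The list was written with earlier results of these mice known, so its count is a description. The 11 were Mt2, Pdk4, Txnip, Sdc4, Pnpla2, Fam107a, Ppp1r3g, Mt1, Zbtb16, Mertk and Klf9. The 32 members that were not called had a median of 0.30, with 23 positive. The 44 genes of the list in the count table, 1 of them too low to test, summed to 4314 to 4616 CPM in sham mice and 6023 to 6873 CPM in GDX mice, with no overlap.

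Sdc4 encodes syndecan 4, a cell surface proteoglycan. It was at 413, 368 and 407 CPM in sham mice and at 569, 572, 670 and 510 CPM in GDX mice, a log2 fold change of 0.55 ± 0.09 (SE; edgeR adjusted p = 0.00889). Fam107a, which binds actin, was at 1806, 1725 and 1738 CPM against 2108, 2331, 2653 and 2665 CPM (log2 fold change 0.47 ± 0.09, SE; edgeR adjusted p = 0.0276). The 3 sham mice lay close together in this gene, and GDX F1 was the nearest to them. Zbtb16, a zinc finger transcription factor, was at 66.9, 73.2 and 71.2 CPM in sham mice and at 93.1, 107, 100 and 82.9 CPM in GDX mice (edgeR adjusted p = 0.0573). Klf9, a transcription factor that thyroid hormone induces as well, was at 246, 270 and 261 CPM against 357, 323, 336 and 307 CPM (edgeR adjusted p = 0.0927). Mertk, a receptor by which astrocytes engulf synapses and debris, was at 154, 131 and 144 CPM against 171, 187, 233 and 188 CPM (edgeR adjusted p = 0.0573), and it was the only one of 20 synapse-regulating astrocyte factors called. Both groups of mice stood apart in all 3 genes.

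Tsc22d3, which encodes the glucocorticoid-induced leucine zipper protein and is named after its values were seen, was at 201, 184 and 173 CPM in sham mice and at 528, 532, 574 and 302 CPM in GDX mice. Its log2 fold change of 1.38 ± 0.23 (SE) exceeded that of every called member of the list, but WT (GDX) F4 lay far below the other GDX mice and it was not called (edgeR adjusted p = 0.133). Klf15, a transcription factor outside the list that is also known as a target of the glucocorticoid receptor, is named after its values were seen. It rose from 50.9, 50.5 and 49.2 CPM to 81.9, 74.2, 75.7 and 57.9 CPM (log2 fold change 0.53 ± 0.11, SE; edgeR adjusted p = 0.0347). Its call was lost without WT (sham) F3, without WT (GDX) F1 and without WT (GDX) F3. Fkbp5, a cochaperone of the glucocorticoid receptor also named after its values were seen, had overlapping groups, at 84.2 ± 19.5 CPM against 111 ± 10.9 CPM (SD; edgeR adjusted p = 0.350). Per1, a clock gene on the list named after its values were seen, had a log2 fold change of -0.02. The receptor itself, Nr3c1, was at 137 ± 20.6 CPM and 139 ± 8.61 CPM (SD) in overlapping groups.

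**Figure D2:**
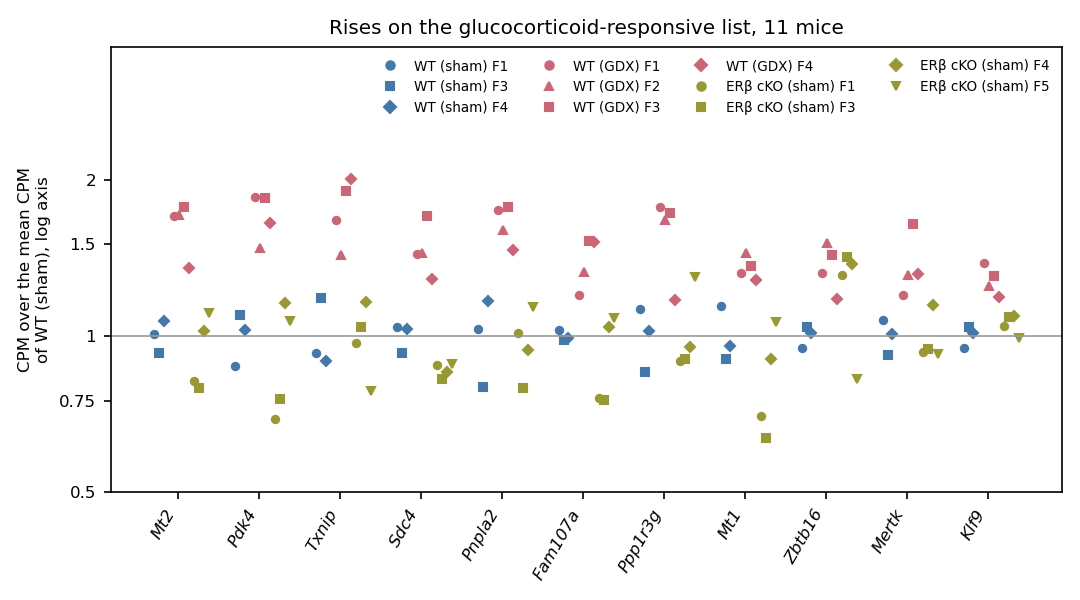
The 11 rises on the glucocorticoid-responsive list in all 11 mice, as CPM over the mean of the WT (sham) mice on a log axis, with blue for WT (sham), red for WT (GDX) and olive for ERβ cKO (sham). On a scale set over all 11 libraries, the ERβ cKO (sham) mice were at 18.6 to 31.2 CPM for Pdk4 and 329 to 352 CPM for Sdc4. On that scale Sdc4 was at 370 to 415 CPM in WT (sham) and 513 to 678 CPM in WT (GDX).

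The promoters of 3 of these rises held the glucocorticoid response element, shown here because the genes rose together. RefSeq windows of GRCm38.p6, the assembly of mm10, were found for 12947 of the tested genes, 53 of the 64 rises among them, and the 250 bases before each start were searched on both strands. The element was searched as GNACANNNTGTNC, which reads the same on both strands. It was present in 49 of 12947 genes, or 0.378%, in 3 of the 53 rises, or 5.66%, and in none of 17 falls. All 3 rises are on the glucocorticoid-responsive list, where 5 of the 36 tested members with a window, or 13.9%, held the element. Whether the share among rises goes beyond membership of that list was not tested. Fam107a, before a start inside the gene, Mt1 and Txnip carried it, and the match is in capitals.
Fam107a, chr14:8309778-8310027, minus strand: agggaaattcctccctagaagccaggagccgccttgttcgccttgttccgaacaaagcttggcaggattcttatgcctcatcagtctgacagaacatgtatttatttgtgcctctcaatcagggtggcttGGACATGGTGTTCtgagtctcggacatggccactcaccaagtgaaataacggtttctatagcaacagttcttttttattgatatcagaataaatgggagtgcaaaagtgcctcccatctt
Mt1, chr8:94178839-94179088, plus strand: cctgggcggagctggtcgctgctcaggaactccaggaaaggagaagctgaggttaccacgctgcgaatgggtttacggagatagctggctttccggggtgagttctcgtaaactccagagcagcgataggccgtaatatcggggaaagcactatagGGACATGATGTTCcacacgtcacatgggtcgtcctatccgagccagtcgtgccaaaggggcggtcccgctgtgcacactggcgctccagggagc
Txnip, chr3:96557707-96557956, plus strand: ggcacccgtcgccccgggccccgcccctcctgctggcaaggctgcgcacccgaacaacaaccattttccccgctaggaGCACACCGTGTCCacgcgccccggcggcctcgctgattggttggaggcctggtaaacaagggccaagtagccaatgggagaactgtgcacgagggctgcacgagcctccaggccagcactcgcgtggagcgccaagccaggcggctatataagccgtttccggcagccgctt
The estrogen response element, GGTCANNNTGACC, was in 3 of the 12947 genes, or 0.0232%, and in none of the windows of rises or falls. These are matches of letters and not sites of binding.

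The metallothioneins, small proteins that bind zinc and copper, rose together from 1 cluster on chromosome 8. Mt2, at 94172664 to 94173568 in mm10, was at 268, 245 and 281 CPM in sham mice and at 449, 452, 465 and 358 CPM in GDX mice, a log2 fold change of 0.70 ± 0.10 (SE; edgeR adjusted p = 0.000788). Mt1, at 94179082 to 94180327, was at 530, 417 and 441 CPM against 611, 668, 628 and 592 CPM (log2 fold change 0.43 ± 0.09, SE; edgeR adjusted p = 0.0478). Mt3, a member expressed mainly in brain that lies at 94152607 to 94154146, was at 416, 372 and 386 CPM against 488, 496, 474 and 527 CPM (log2 fold change 0.34 ± 0.08, SE; edgeR adjusted p = 0.0979). Every GDX mouse exceeded every sham mouse in each of the 3 genes, and Mt2 alone kept its call whichever mouse was left out. In ERβ cKO (sham), on a scale set over all 11 libraries, the ranges were 211 to 295 CPM for Mt2 and 296 to 495 CPM for Mt1. For Mt3 the range was 269 to 452 CPM. The other 5 genes of the list, which carry zinc across membranes, were not called, and the list's median was 0.10. The metal response element, searched as TGCACNC and TGCGCNC on both strands, matched 3 times in the window of Mt2, in capitals here, 1 time in that of Mt1 and not in that of Mt3. It is a common match, found in 4279 of the 12947 genes, or 33.1%, and in 22 of the 53 rises, or 41.5%.
Mt2, chr8:94172368-94172617, plus strand: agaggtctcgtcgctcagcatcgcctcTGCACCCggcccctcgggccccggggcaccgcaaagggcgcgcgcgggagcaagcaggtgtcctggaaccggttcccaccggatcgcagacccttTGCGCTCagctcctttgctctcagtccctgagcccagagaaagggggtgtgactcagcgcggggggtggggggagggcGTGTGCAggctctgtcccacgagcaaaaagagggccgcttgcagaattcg

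Steroid enzymes showed 1 call, a rise, where 0.325% of all genes tested rose. Hsd11b1 encodes the enzyme that regenerates active glucocorticoid inside cells. It was at 76.7, 73.6 and 78.9 CPM in sham mice and at 123, 97.4, 124 and 88.4 CPM in GDX mice, a log2 fold change of 0.50 ± 0.11 (SE; edgeR adjusted p = 0.0573), and F1 and F3 were the high GDX mice. Sult1a1, a sulfotransferase, was at 17, 19.3 and 20.4 CPM against 26.4, 29.7, 47.5 and 47.1 CPM without a call (log2 fold change 1.0 ± 0.21, SE; edgeR adjusted p = 0.117). Of 19 genes of steroid synthesis and turnover tested, 16 were positive, with a median of 0.10. Of 14 thyroid hormone-responsive and transport genes, Thrsp and Klf9 rose, against the same 0.325%. The median of 0.07 over the 14 turned negative without WT (sham) F3. Dio2, the deiodinase that activates thyroid hormone in astrocytes, was at 246, 235 and 303 CPM against 420, 487, 580 and 283 CPM (edgeR adjusted p = 0.534), with F4 the only GDX mouse inside the sham range.

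The list of genes known to respond to estrogen held no rise and no fall. None of its 31 tested members was called, where 0.437% of all genes tested were. Of the 31, 20 were positive and 11 negative, and the median was 0.03. The paper reports a fall in WT (GDX) of genes harboring estrogen response elements, shown for genes picked by their fall in ERβ cKO (sham). Those genes were not looked at as a set here, and the list does not speak for genes outside it. Pgr, the progesterone receptor and a classical estrogen target, was at 6.19, 8.39 and 6.86 CPM in sham mice and at 7.62, 5.68, 5.55 and 5.80 CPM in GDX mice, with overlapping groups (edgeR adjusted p = 0.871). The estrogen receptor gene Esr1 was at 5.96 ± 0.638 CPM in sham mice and 5.71 ± 0.718 CPM in GDX mice (SD), also overlapping. C3, a complement component that estrogen induces in uterus, had the smallest p of the list, at 1.44, 1.62 and 1.38 CPM against 0.167, 0.568, 0.963 and 0.281 CPM (edgeR adjusted p = 0.391). None of 20 steroid and related receptor genes was called. These levels leave small changes of low genes undetectable, since Gper1, a membrane receptor for estrogen, ranged from 0 to 41 counts among the sham mice alone.

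Of 28 astrocyte genes, 4 rose and none fell, where 0.325% of all genes tested rose and 0.112% fell. In all 26 were positive, the groups did not overlap for 17, all higher, against 4.99% of all genes tested, and the median log2 fold change was 0.25, between 0.20 and 0.32 whichever mouse was left out. Gjb6, which encodes the astrocyte gap junction protein connexin 30, was at 295, 272 and 295 CPM in sham mice and at 370, 395, 504 and 415 CPM in GDX mice (log2 fold change 0.55 ± 0.10, SE; edgeR adjusted p = 0.0112). S100b, a calcium-binding protein, was at 470, 478 and 455 CPM against 686, 598, 574 and 664 CPM (edgeR adjusted p = 0.0334). The GDX mice were the higher in both genes without overlap. Glul, glutamine synthetase, was at 6677, 6107 and 7119 CPM against 8475, 8577, 9812 and 8768 CPM (log2 fold change 0.43 ± 0.09, SE; edgeR adjusted p = 0.0496). F3, tissue factor, was at 139, 118 and 118 CPM against 171, 145, 170 and 166 CPM (edgeR adjusted p = 0.0871), with GDX F2 the closest to the sham mice. Aldh1l1, the folate enzyme used to mark astrocytes, was at 128 ± 11.1 CPM against 162 ± 9.64 CPM (SD; edgeR adjusted p = 0.138), and Gfap, whose promoter drove Cre, was at 1612 ± 257 CPM against 1862 ± 248 CPM (SD) in overlapping groups. Sox9 and Kcnj10, named after their values were seen, were the 2 negative members, at -0.08 and -0.04.

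**Figure D3:**
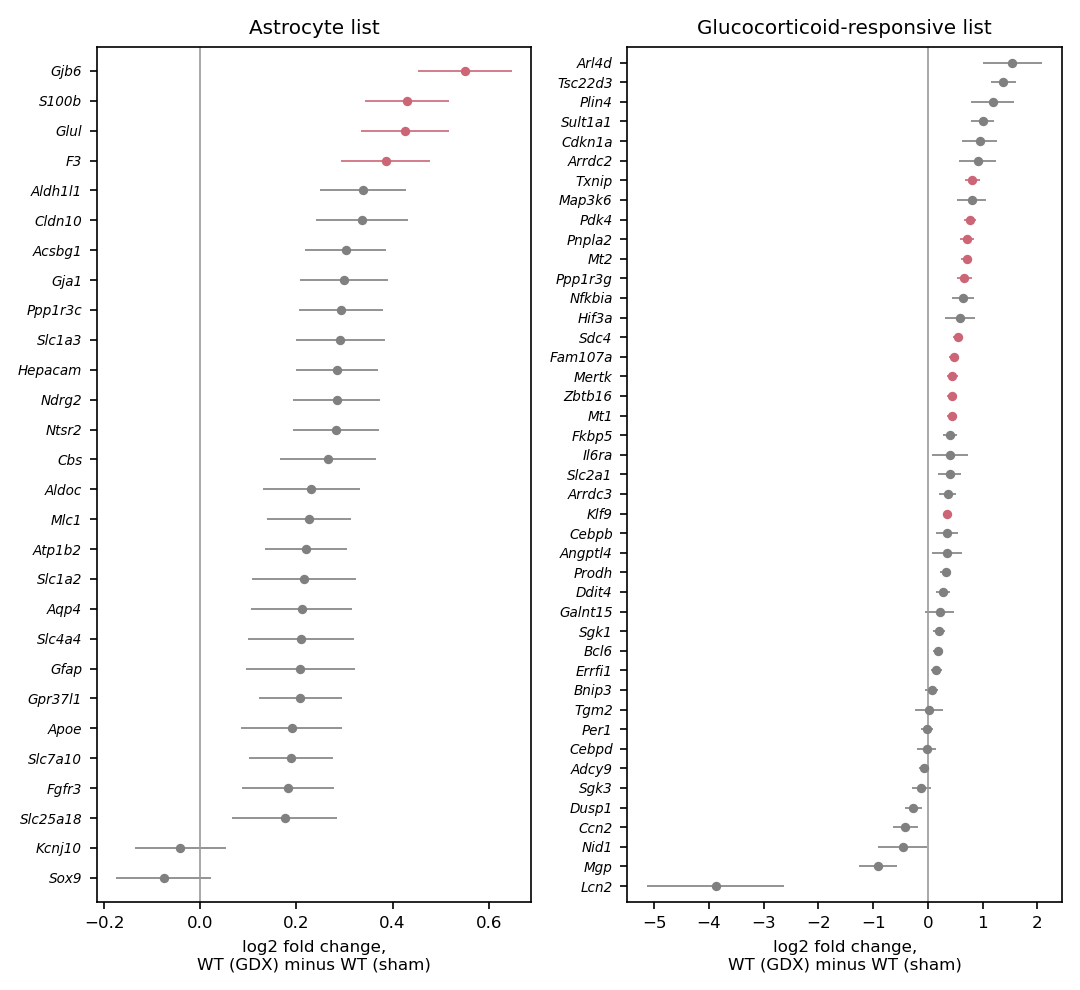
Log2 fold change of WT (GDX) minus WT (sham) with its standard error for the 28 astrocyte genes and the 43 glucocorticoid-responsive genes, the genes called higher in red. In the astrocyte list 26 genes lie to the right of 0, up to 0.55 for Gjb6, while on the wider axis of the glucocorticoid-responsive list the genes called lie between 0.35 for Klf9 and 0.81 for Txnip.

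The summed level of astrocyte markers moved with the groups. The 28 genes summed to 36878 to 42090 CPM in sham mice and 44989 to 52247 CPM in GDX mice, and the 20 neuron genes to 15919 to 16752 CPM and 15040 to 15885 CPM, both without overlap. Each gene's CPM was then divided by the astrocyte sum of its own library, a scale chosen after seeing the data. On it 30 of the 64 rises kept groups that did not overlap, where all 64 had done so on CPM. Of all genes tested, 0.807% were apart and higher on that scale and 20.2% apart and lower. The rises were picked from these same mice, so no conclusion is drawn from their share. The sum itself holds the called Gjb6, Glul, S100b and F3. On that scale 5 of the 11 glucocorticoid-responsive rises had groups apart, and Txnip, Ppp1r3g, Mt1, Zbtb16, Mertk and Klf9 overlapped. The largest log2 fold change of an astrocyte list gene was 0.55, and 24 of the 64 rises exceeded it. The part of the astrocyte sum in any single rise was not tested.

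Lrrc8a, on no list, was among the 18 rises with the smallest p. Lrrc8c, also on no list, is named after its values were seen. Lrrc8a, the subunit that volume-regulated anion channels cannot do without, was at 110, 91.7 and 108 CPM in sham mice and at 150, 165, 173 and 128 CPM in GDX mice (log2 fold change 0.58 ± 0.10, SE; edgeR adjusted p = 0.0128). Lrrc8c, another subunit of these channels, was at 57.5, 45.2 and 52.2 CPM against 71.5, 80.5, 102 and 68.4 CPM (edgeR adjusted p = 0.0355). Gm28035, named after its values were seen, also rose, but it overlaps Lrrc8a on the same strand. The reads of Gm28035 and Lrrc8a cannot be told apart with certainty. Of 15 genes of gap junctions and of potassium and water balance, Gjb6 was called, 10 were positive and the median was 0.21. Gjb2, the connexin that pairs with connexin 30, was at 12.7, 14.1 and 15.1 CPM against 18.4, 19.8, 21.2 and 18.7 CPM, apart but not called (edgeR adjusted p = 0.186). Of 12 genes of glutamate uptake and turnover, Glul was called, with a median of 0.11. Ezr, which links membrane to actin in the fine processes of astrocytes, is on no list and is named after its values were seen. It rose from 184, 167 and 235 CPM to 272, 261, 320 and 278 CPM (log2 fold change 0.53 ± 0.11, SE; edgeR adjusted p = 0.0334).

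The named rises Timp4, Tns3 and Klhdc7a were also on no list. Timp4, an inhibitor of metalloproteinases, was at 127, 107 and 122 CPM in sham mice and at 152, 160, 174 and 168 CPM in GDX mice (log2 fold change 0.46 ± 0.09, SE; edgeR adjusted p = 0.0276). It lies within Syn2 on the opposite strand, and the strand setting of the counting is not given in the sources used here. Tns3, a tensin of focal adhesions, was at 206, 204 and 255 CPM against 290, 316, 340 and 292 CPM (log2 fold change 0.48 ± 0.09, SE; edgeR adjusted p = 0.0276). Klhdc7a, a kelch domain gene, was at 77.5, 68.9 and 81.1 CPM against 105, 105, 119 and 102 CPM (log2 fold change 0.51 ± 0.09, SE; edgeR adjusted p = 0.0167). All 3 had separate groups and lost their call without WT (sham) F3 or without WT (GDX) F3. The list of matrix and basement membrane genes, which holds none of them, had no call among 22 tested, with 17 negative and a median of -0.20 that was 0.00 without WT (sham) F4.

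The remaining rises spanned receptors, transcription and small organelles and are named after their values were seen. Mc4r, the melanocortin 4 receptor known from control of feeding, was at 10.9, 8.28 and 6.40 CPM in sham mice and at 15.1, 14.3, 16.5 and 11.5 CPM in GDX mice (edgeR adjusted p = 0.0979). Ppp1r1b, the protein phosphatase inhibitor DARPP-32, was at 121, 108 and 101 CPM against 162, 147, 147 and 138 CPM (edgeR adjusted p = 0.0478). Id4, an inhibitor of DNA binding that keeps precursors from differentiating, was at 146, 157 and 147 CPM against 205, 189, 210 and 173 CPM, and Vhl, which marks hypoxia-inducible factors for breakdown, at 99.4, 103 and 111 CPM against 135, 139, 131 and 135 CPM. No mouse crossed between the groups in these genes. The largest fitted rise, Gm11827 at 2.63 ± 0.64 (SE), is a noncoding RNA at 0.331, 0.232 and 0.231 CPM against 0.625 to 3.11 CPM, and Gm13068 and Gm15851 are annotated antisense to Slc25a33 and to Optc and Prelp, so their counts are uncertain.

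Of the 22 falls, which are 0.112% of all genes tested, 9 were on the choroid plexus list and 13 were not. The 35 tested genes of that list had a median of -0.99. That median was -0.55 without WT (sham) F4 and -1.56 without WT (GDX) F1. All 13 lost their call without WT (sham) F3 and without WT (GDX) F3. Adcy8, Kcnj4 and Cckbr, on no list, are best known from neurons. Adcy8, an adenylyl cyclase driven by calcium, was at 25.2, 25.3 and 21.9 CPM in sham mice and at 16.0, 14.1, 12.3 and 18.5 CPM in GDX mice (log2 fold change -0.67 ± 0.14, SE; edgeR adjusted p = 0.0496). Kcnj4, an inwardly rectifying potassium channel, was at 78.4, 83.9 and 67.6 CPM against 54.8, 59.1, 49.3 and 60.7 CPM (log2 fold change -0.45 ± 0.10, SE; edgeR adjusted p = 0.0575). Cckbr, the cholecystokinin B receptor, was at 7.13, 8.63 and 7.55 CPM against 3.5, 3.97, 2.72 and 5.01 CPM (log2 fold change -1.03 ± 0.23, SE; edgeR adjusted p = 0.0589). The sham mice were above the GDX mice in all 3. None of the 20 genes of the neuron list was called, 16 were negative, and the median was -0.05.

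Of the 13, 7 had a mean under 10 CPM in sham mice. Drc7, a dynein regulator of motile cilia and the only one of them on a list, was at 2.54, 4.23 and 6.52 CPM in sham mice and at 1.72, 1.25, 0.849 and 0.45 CPM in GDX mice (log2 fold change -2.04 ± 0.39, SE; edgeR adjusted p = 0.0276). Lrrc23, a part of the radial spoke of cilia, was at 7.30 ± 2.58 CPM against 3.15 ± 0.888 CPM (SD; edgeR adjusted p = 0.0573). Abca4, a transporter of retinoids, was at 1.60, 3.65 and 5.71 CPM against 0.723, 0.965, 0.623 and 0.113 CPM (edgeR adjusted p = 0.0334). In all 3 genes WT (sham) F4 was the highest mouse and F1 the lowest of the sham mice. The order F1, F3, F4 from low to high held for 5 of the 13 falls and for 7 of the 9 falls on the choroid plexus list. Among the latter, Ttr, the transthyretin gene and a defining choroid plexus marker named after its values were seen, was at 24.3, 56.7 and 121 CPM in sham mice and at 0.113 to 0.681 CPM in GDX mice. Wdr86, a WD repeat gene, had 220 counts over the sham mice and 4 over the GDX mice, a 75.2-fold higher share in sham with an interval of 29.0 to 278 (95%, exact, counting error only). Its sham values of 0.718, 3.01 and 8.94 CPM spread widely. Sulf1, which trims sulfate from heparan sulfate, was at 7.13, 15.1 and 13.6 CPM against 6.95, 6.25, 5.78 and 5.40 CPM (edgeR adjusted p = 0.0573), so that sham F1 was next to GDX F1. Cdhr1, a photoreceptor cadherin, was at 12.6, 10.9 and 9.28 CPM against 4.17, 7.55, 6.17 and 5.68 CPM (edgeR adjusted p = 0.0627).

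The last falls included overlapping pairs. Gm26883, a noncoding RNA, was at 29.6, 24.1 and 24.0 CPM in sham mice and at 14.2, 20.4, 14.4 and 18.3 CPM in GDX mice (edgeR adjusted p = 0.0696). Tshz2, a transcription factor gene on the opposite strand at the same place, was at 34.6, 29.3 and 31.7 CPM against 19.7, 25.8, 19.4 and 22.9 CPM (edgeR adjusted p = 0.0757), so the reads of the pair cannot be told apart with certainty. Fhad1, at 4.86 to 7.21 CPM against 2.21 to 3.34 CPM, and Six3os1, which lies antisense to Six3 and had 53 counts over the sham mice and 3 over the GDX mice, were the remaining falls and, like Tshz2, are named after their values were seen. The share of Six3os1 was 24.2-fold higher in sham, with an interval of 7.83 to 121 (95%, exact, counting error only).

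**Figure D4:**
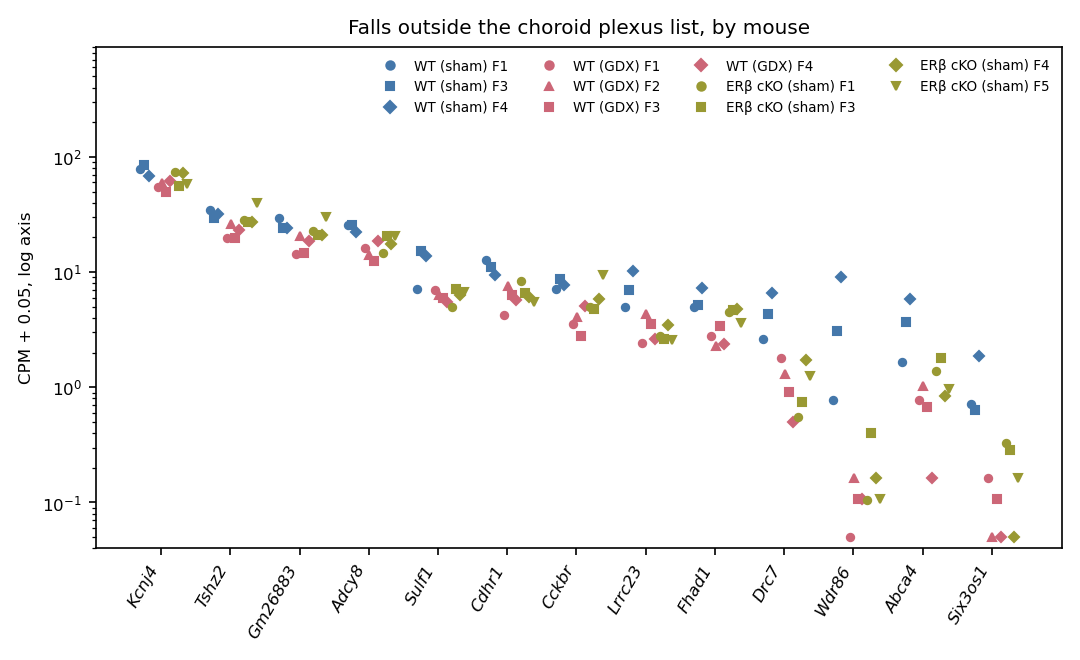
CPM plus 0.05 on a log axis for the 13 falls outside the choroid plexus list in all 11 mice, with blue for WT (sham), red for WT (GDX) and olive for ERβ cKO (sham); a gene at 0 lies at 0.05. WT (sham) F4 is the highest sham mouse for 6 of the 13, among them Wdr86 at 9.02 CPM on a scale set over all 11 libraries.

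In ERβ cKO (sham), which shares its WT (sham) controls with this comparison, the levels are given on a scale set over all 11 libraries. Drc7 was at 0.502 to 1.69 CPM, Wdr86 at 0.0558 to 0.349 CPM and Lrrc23 at 2.5 to 3.43 CPM. Cckbr was at 4.77 to 9.45 CPM, Kcnj4 at 56.1 to 74.1 CPM and Tshz2 at 27.0 to 39.7 CPM. The first 3 ranges lie below all WT (sham) mice, and the last 3 reach into them. Adcy8 at 14.6 to 20.4 CPM and Cdhr1 at 5.41 to 8.32 CPM also lay below all WT (sham) mice. So did Fhad1 at 3.53 to 4.72 CPM and Six3os1 at 0 to 0.279 CPM. Abca4 at 0.787 to 1.74 CPM, Sulf1 at 4.97 to 7.15 CPM and Gm26883 at 20.9 to 30.0 CPM reached into the sham range.

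Markers of other cells that could enter the precipitate were read as whole lists. Of 37 ependyma and motile cilia genes, Drc7 fell, 31 were negative, the groups did not overlap for 9, all lower, against 3.38% of all genes, and the median was -0.57, or -0.30 without WT (GDX) F4. Their sum was 178 to 218 CPM in sham mice and 112 to 166 CPM in GDX mice. Foxj1, the master regulator of motile cilia, was at 16.0, 16.0 and 12.3 CPM against 8.56, 8.74, 11.6 and 4.95 CPM without a call (edgeR adjusted p = 0.154). The 5 blood genes were all negative and summed to 3.76 to 25.4 CPM in sham mice and 2.77 to 3.49 CPM in GDX mice. Hbb-bt, a hemoglobin chain, was at 4.96 CPM in WT (sham) F4 and at or below 0.608 CPM in each other mouse. Of 15 genes of meninges and fibroblasts, Igf2 fell, 11 were negative and the median was -0.24, between -0.41 without WT (GDX) F3 and -0.14 without WT (GDX) F1. They summed to 202 to 221 CPM in sham mice and 184 to 197 CPM in GDX mice, without overlap. Igf2, a growth factor gene that is on the choroid plexus list too, was at 6.74, 9.90 and 21.3 CPM against 3.39, 3.92, 2.21 and 2.53 CPM (log2 fold change -2.06 ± 0.38, SE; edgeR adjusted p = 0.0780). All 38 choroid plexus genes in the table summed to 2126 to 2315 CPM and 1952 to 2204 CPM, which overlap, though 30 of the 35 tested were negative and the groups did not overlap for 19, all lower. The 20 microglia genes summed to 83.6 to 109 CPM and 90.2 to 105 CPM, the 15 oligodendrocyte genes to 545 to 798 CPM and 616 to 700 CPM, and the 21 genes of endothelium and pericytes to 126 to 275 CPM and 121 to 225 CPM, all overlapping. The part of the ependyma, choroid plexus, meninges and blood differences in the falls was not tested.

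Genes of reactive astrocytes and of cell activity gave no calls. None of 12 pan-reactive, 13 A1 and 13 A2 genes passed, where 0.437% of all genes tested did. Lcn2, a secreted marker of reactive astrocytes, was near the limit of detection, at 0.663, 0.810 and 0.0577 CPM in sham mice and 0, 0, 0 and 0.113 CPM in GDX mice, with overlapping groups (edgeR adjusted p = 0.288). S100a10, of the A2 list, was at 37.8, 31.6 and 32.3 CPM against 51.5, 46.3, 40.1 and 46.2 CPM, apart but not called (edgeR adjusted p = 0.117). Of 22 immediate early genes, 17 were negative with a median of -0.15, and the list summed to 1152 to 1239 CPM in sham mice and 1045 to 1139 CPM in GDX mice, without overlap. Ier5 and Nr4a3, both induced by activity, had groups apart, at 44.6 ± 7.69 CPM against 35.4 ± 0.938 CPM and 98.4 ± 6.07 CPM against 83.6 ± 1.92 CPM (SD), with edgeR adjusted p values of 0.351 and 0.418.

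**Figure D5:**
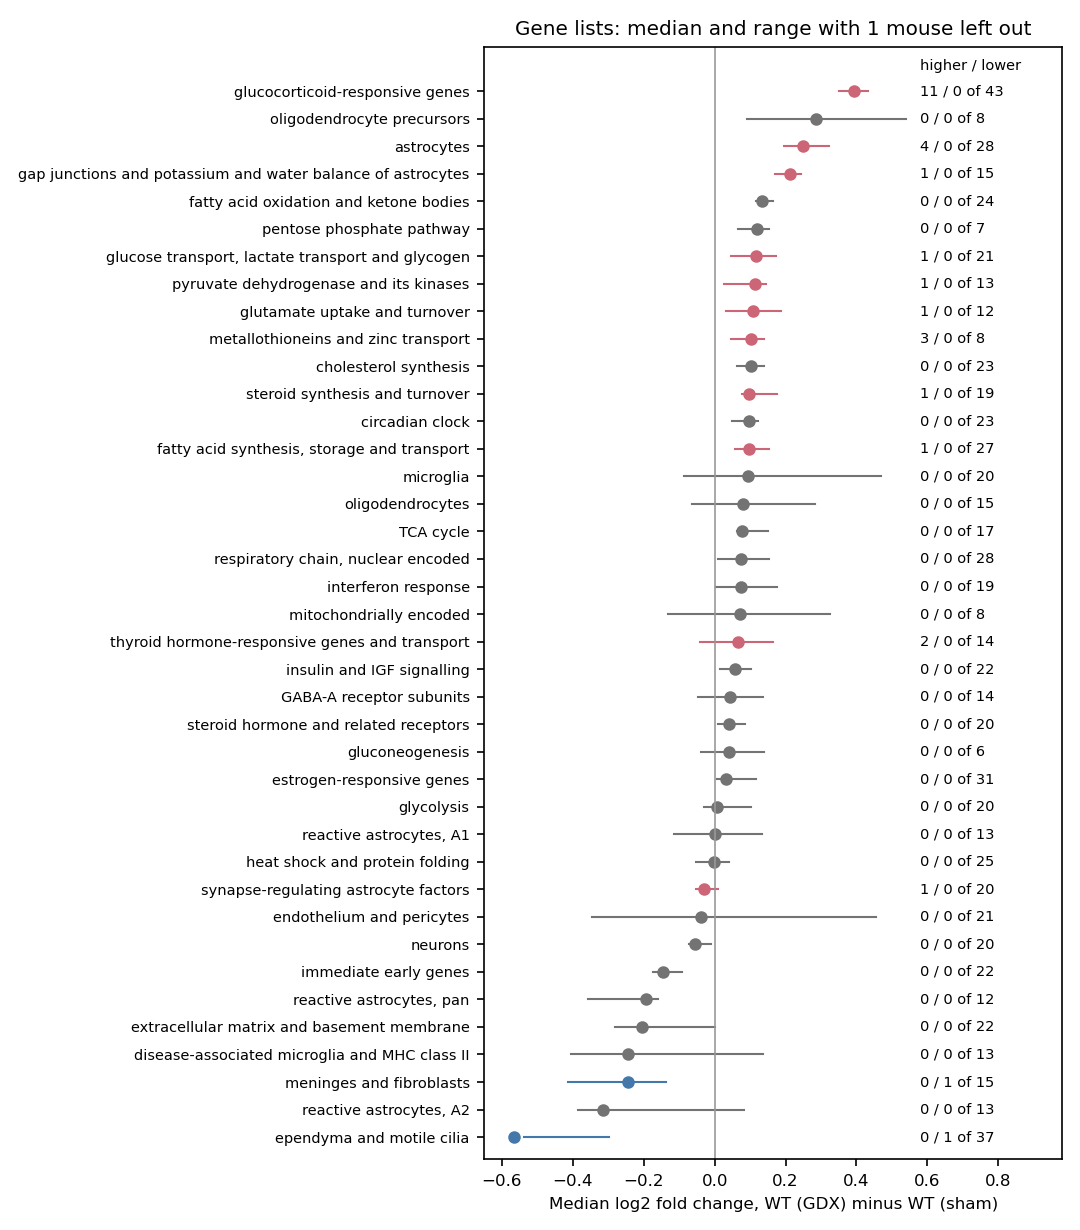
Median log2 fold change of WT (GDX) minus WT (sham) for each gene list, with lines for the range when 1 mouse is left out and, at the right, the members called higher and lower of those tested; choroid plexus and blood are left out. Red lists have a rise, blue lists a fall only and grey lists no call, and the glucocorticoid-responsive list lies highest at 0.39 and ependyma lowest at -0.57, outside its own range because every mouse left out moved it toward 0.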

How the data were processed

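RNA on HA-tagged ribosomes of hippocampus was isolated with a Direct-zol kit and made into libraries with a KAPA stranded kit by the authors, who sequenced single-end 50 base reads. Per the labels and the study's methods the authors used bcl2fastq 2.17 to separate libraries, FastQC and Trimmomatic for read quality, and QuasR to align to mm10 and to count reads in genes. What they deposited is 1 table of raw counts by Ensembl identifier, without normalization. Versions of the other tools, the strand setting, the treatment of reads with several matches and the annotation were not given in these sources, so antisense, overlapping and near-identical genes are uncertain.

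Names and places come from GENCODE M21, which matched 37693 of 39017 identifiers. A gene was kept if no more than 3 of the 7 libraries had a count under 1. The WT libraries alone entered the model, with TMM factors and robust quasi-likelihood F tests in edgeR 4.0.16 (R 4.3.3, with limma 3.58.1), with Benjamini-Hochberg adjustment over all genes tested and a threshold of 0.1. The SE is the absolute log2 fold change over the square root of F. Each library is 1 mouse, so p values weigh the group difference against variation between mice, with dispersions moderated over all genes. The intervals cover counting error only. An exact permutation test of 3 against 4 mice cannot go below a two-sided p of 0.0571 and was not used. The mouse numbers have no stated link between groups.

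The members, the 41 gene lists and the tests were chosen with earlier results of these data known. Genes named in the text are the 18 rises and 10 falls with the smallest p among those called with a mean of at least 10 counts, choroid plexus falls left out, every called gene on a list other than choroid plexus, of each list described the 3 members of smallest p at most, and the genes Esr1, Esr2, Gper1, Pgr, Nr3c1, Eno1, Gfap, Aldh1l1 and Rpl22. Settings varied were the scaling, the filter, the test (DESeq2 1.42.0 among them), the groups fitted, the mouse number as a block, the threshold and each mouse left out.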

Additional observations from a re-analysis of the deposited data

Results flagged for a closer look

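In the group of 4 WT (GDX) mice, 1 mouse lay far from the other 3 for 13 of 196 genes looked at, by Dixon's test at 95%, which flags about 1 in 20 groups by chance. WT (GDX) F4 was the lowest mouse for Mt2 at 358 CPM, with the others at 449 to 465 CPM, for Ppp1r3g at 34.7 CPM, with the others at 49.6 to 52.5 CPM, and for Tsc22d4 at 183 CPM, with the others at 208 to 211 CPM. It was also lowest for Nr1h2, an oxysterol receptor gene, at 19.5 CPM against 23.7 to 24.3 CPM. WT (GDX) F3 was the highest for Crot at 109 CPM, for Tfcp2l1 at 53.6 CPM, with the others at 35.2 to 36.7 CPM, and for Gabrb1, a GABA-A receptor subunit, at 96.1 CPM, with the others at 81.6 to 82.9 CPM. WT (GDX) F1 was the highest for Pgr at 7.62 CPM and for Cxcl10 at 0.723 CPM.

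The other 4 of these genes were near 0, where 1 or a few reads set the distance. Slc4a5 and Irs4 were at 0 CPM in WT (GDX) F4 and at 0.0556 to 0.0568 CPM in the others, Kcne2 was at 0.167 CPM in F1 and 0 in the others, and Lcn2 was at 0.113 CPM in F4 and 0 in the others.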

How the results depend on the processing

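The number of genes called depended on the test, the filter and the mice. Against 86 genes, 64 higher and 22 lower, no filter gave 289 (198 and 91), DESeq2 206 (150 and 56), the likelihood ratio test 189 (134 and 55) and the exact test 156 (113 and 43), and each kept all 86. FilterByExpr gave 53 with 38 higher, library size alone 40 higher, an adjusted p under 0.05 36 (30 and 6), and all 3 groups in 1 fit 23 (16 and 7), 20 of them among the 86. Leaving out 1 mouse gave 11 to 275 genes, 7 to 211 higher and 4 to 64 lower, and 9 of the 86 passed each time. With the mouse number as a replicate block 101 genes passed, 64 higher and 37 lower, 56 of the 86 among them. Same-numbered mice deviated with correlations of -0.03, -0.01 and -0.12, and mice of unlike number with -0.05 to 0.08. With so few mice these values cannot decide whether the numbers pair the mice. No called gene changed direction under any of these settings. On the scale of astrocyte markers, added after seeing the data, 30 of the 64 rises kept groups apart. With 3 and 4 mice and totals of 16956233 to 18190968 counts, small changes of genes with few counts were not detectable.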

Other observations

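Some values belong to no group described above. The 14 GABA-A receptor subunit genes held no call, and Gabrd, the subunit of tonic inhibition, was at 14.5, 14.7 and 15.8 CPM in the sham mice and at 9.45, 11.2, 11.7 and 10.1 CPM in the GDX mice without overlap, with an edgeR adjusted p of 0.243. Among 22 matrix and basement membrane genes, Lama4, a laminin chain, was at 5.19, 3.47 and 6.46 CPM against 2.28, 2.56, 2.89 and 1.91 CPM, with an edgeR adjusted p of 0.138. Mal, a myelin membrane protein gene, was at 15.2, 16.8 and 19.2 CPM against 24.1, 19.9, 24.2 and 28.9 CPM, with an edgeR adjusted p of 0.173, while none of 15 oligodendrocyte genes was called. Rpl22, the gene that carries the tag, was at 69.4, 72.8 and 62.8 CPM against 72.9, 76.0, 80.4 and 75.4 CPM, with an edgeR adjusted p of 0.729. Esr2 had 2, 4 and 0 counts in the sham mice and 4, 7, 0 and 0 in the GDX mice.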
